A study of Homo sapiens with 6 samples.

Results

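Genes of the BMP, activin and TGF-beta pathway were followed in PANC1, an established human pancreatic cancer cell line, with and without disruption of RARG, which encodes retinoic acid receptor gamma, a nuclear receptor. The 47 genes were the ligands, receptors, SMADs, antagonists and feedback or target genes of a fixed list, from which the ID genes were left out, and all 47 were found by symbol among the 60675 Ensembl identifiers of the count table. RNA was sequenced from 3 libraries of wild-type PANC1 (WT), labelled as without treatment, and from 3 libraries of PANC1 in which RARG had been targeted with Cas9 and a pair of guide RNAs from a plasmid, followed by puromycin selection and expansion of single clones (RARG-KO). All cells grew in DMEM with fetal bovine serum, and no BMP, activin, TGF-beta or retinoid is named in the labels as added. The labels do not say how many clones the RARG-KO libraries come from, so the knockout and a property of 1 clone cannot be told apart, and without a label for separate cultures the p-values measure only the spread between these libraries, which may be technical.

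BMPs, activins and TGF-betas are secreted dimers that bring together type I and type II receptor kinases at the cell surface. The type I receptor then phosphorylates receptor SMADs, SMAD1, SMAD5 and SMAD9 (also called SMAD8) for BMPs and SMAD2 and SMAD3 for activins and TGF-betas, which enter the nucleus with SMAD4. Inhibitory SMADs, secreted antagonists and nuclear corepressors hold the pathway in check, and several of them are induced by the pathway itself. In pancreatic cancer the pathway is known for the frequent loss of SMAD4 and for the effects of TGF-beta on growth and on epithelial to mesenchymal transition.

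Libraries held 29386408 to 31608089 counts, and levels are given as CPM, the count of a gene scaled to a common library size with TMM factors. RARG itself had 39.1, 40.6 and 41.6 CPM in WT replicates 1, 2 and 3 and 28.4, 24.1 and 28.5 CPM in RARG-KO, or -0.58 ± 0.07 on the log2 scale (SE; adjusted p = 1.66e-07 by the quasi-likelihood test of edgeR). A gene count sums the whole gene and does not show the deleted part, so this checks the labels only in part. Among markers of other cells, 7 of 10 fibroblast, 6 of 7 endothelial and 7 of 8 leukocyte genes stayed under 1 CPM in every library. DCN and EMCN, which mark fibroblasts and endothelium, had no read. The summed fibroblast list was 105 to 109 CPM in WT and 210 to 224 CPM in RARG-KO, nearly all of it COL1A1. The leukocyte list summed to 4.91 to 5.59 CPM and 1.2 to 2.35 CPM. All 7 markers of the carcinoma line were measured, and their sum was 5760 to 5810 CPM in WT and 4380 to 4430 CPM in RARG-KO, with 5 lower in RARG-KO (KRT7, KRT8, KRT18, KRT19, EPCAM), CD44 higher and VIM at a log2 of 0.00.

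The genes with the largest changes came from several roles. The highest rises were in components and targets of the BMP branch, SMAD9, ATOH8, BMPR1B and SMAD6, while secreted or membrane antagonists (GREM1, FST, BAMBI), the TGF-beta target PMEPA1, the co-receptor gene TGFBR3 and the ligand gene BMP4 fell. LTBP2 and ACVRL1 also fell by at least 2-fold. All 47 genes passed the filter on low counts, 42 of them through both groups and 5 (GREM1, CHRD, FST, ACVRL1, BAMBI) through WT only. By the edgeR test, adjusted over all 16996 tested genes at 0.05, 19 rose and 15 fell, and 13 did not pass. That is 72.3% of the 47, beside 58.0% of all tested genes, with 28.7% of all genes higher and 29.3% lower. The 47 genes were chosen with earlier results of these data known, so their shares only describe these genes. A change of at least 2-fold was found in 12 of the 47 (25.5%), 4 higher and 8 lower, against 12.2% of all tested genes, 4.88% higher and 7.37% lower. The 8 lower genes include GREM1, FST, ACVRL1 and BAMBI, whose passage of the filter through WT only favours a fall. The median log2 fold change was 0.08 in the 47 genes and 0.01 over all tested genes, and the median absolute value 0.43 and 0.30. In 35 of the 47 (74.5%) the libraries of both groups did not overlap, as in 62.6% of all tested genes.

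**Figure D1:**
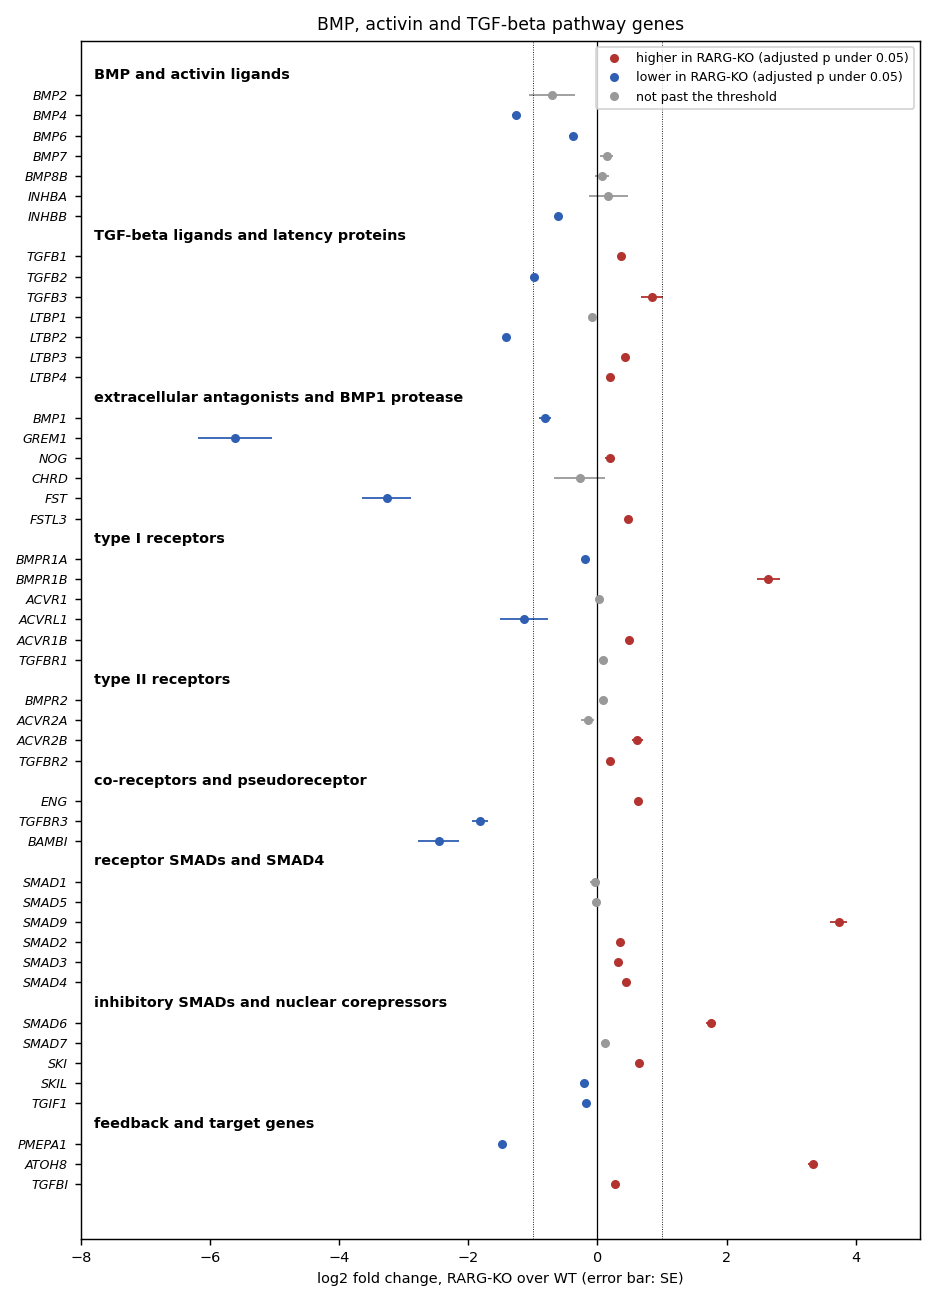
Log2 fold change of the 47 pathway genes, RARG-KO over WT (x axis, log2 units; error bars are SE), grouped by role, with dotted lines at 2-fold. Points run from -5.61 for GREM1 to 3.74 for SMAD9, and most receptors and SMADs lie between the dotted lines.

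Stretches before the RefSeq start are shown for 5 of the genes with changes of at least 2-fold, the rising SMAD6, SMAD9 and ATOH8 and the falling GREM1 and PMEPA1, since they include the highest rise and the deepest fall. Motifs were searched in the 250 bases before the start that RefSeq gives (GRCh38.p14). Printed are those bases in the direction of the gene, in lower case, up to the first base that GENCODE 29 counts as untranslated region, or up to the end of the box in SMAD6. Capitals mark matches, on either strand, to GTCTAGAC (a palindromic SMAD box), GGCGCC (a GC-rich element that SMADs can bind), CAGACA (a SMAD box in another setting) or AGGTCA (the half-site bound by retinoic acid receptors and other nuclear receptors, here read as TGACCT). The stretches lie at chr15:66701986-66702231 (+ strand) for SMAD6, chr13:36920273-36920488 (- strand) for SMAD9, chr2:85753741-85753893 (+ strand) for ATOH8, chr15:32717754-32717973 (+ strand) for GREM1 and chr20:57711537-57711722 (- strand) for PMEPA1.
SMAD6: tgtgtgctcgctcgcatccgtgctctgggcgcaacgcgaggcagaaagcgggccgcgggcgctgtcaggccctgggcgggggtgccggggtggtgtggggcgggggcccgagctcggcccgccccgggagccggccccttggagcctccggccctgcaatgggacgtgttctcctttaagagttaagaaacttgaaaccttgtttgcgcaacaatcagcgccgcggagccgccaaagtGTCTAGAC
SMAD9: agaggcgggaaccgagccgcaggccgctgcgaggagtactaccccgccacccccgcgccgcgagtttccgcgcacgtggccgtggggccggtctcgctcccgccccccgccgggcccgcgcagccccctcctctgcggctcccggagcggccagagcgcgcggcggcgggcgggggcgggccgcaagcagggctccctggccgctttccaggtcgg
ATOH8: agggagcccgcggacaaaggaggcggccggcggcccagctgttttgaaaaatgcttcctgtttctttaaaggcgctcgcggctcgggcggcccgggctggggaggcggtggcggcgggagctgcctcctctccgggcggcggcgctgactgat
GREM1: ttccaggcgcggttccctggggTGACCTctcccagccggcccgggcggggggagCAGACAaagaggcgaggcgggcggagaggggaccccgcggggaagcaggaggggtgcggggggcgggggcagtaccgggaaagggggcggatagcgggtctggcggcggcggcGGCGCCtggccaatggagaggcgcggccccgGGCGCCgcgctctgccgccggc
PMEPA1: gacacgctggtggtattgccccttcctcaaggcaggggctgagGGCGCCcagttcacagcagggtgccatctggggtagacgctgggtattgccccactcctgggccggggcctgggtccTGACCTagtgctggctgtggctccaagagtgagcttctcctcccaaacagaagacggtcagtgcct

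SMAD6 had the palindromic box from 12 to 5 bases before its RefSeq start, and it was the 1 gene of 41 pathway genes found in the RefSeq table with such a box (2.44%), where 48 of all 27305 stretches of this length had it (0.176%). GGCGCC was in 16 of the 41 (39.0%) and in 16.1% of all, and the pathway stretches were also richer in G and C (median 69.6% against 58.0%). CAGACA was in 6 of 41 (14.6%) and 13.6% of all, and AGGTCA in 5 of 41 (12.2%) and 12.1% of all. A direct repeat of AGGTCA with 5 spacer bases was in 0 of the 41 and in 1 of all 27305. GREM1 held GGCGCC at 2 places, CAGACA and AGGTCA, PMEPA1 held GGCGCC and AGGTCA, and the stretches of SMAD9 and ATOH8 held none of the 4. The SMAD9 and ATOH8 stretches lie inside the longer GENCODE gene, which has a transcript that starts further upstream. A match describes letters and not binding, and the start used in PANC1 cells was not measured.

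Among the ligand genes of BMPs and activins, 3 of 7 fell and none rose, counts that can be set beside the 29.3% of all genes that fell. BMP4 (ENSG00000125378, chromosome 14, 53949736 to 53958761, GENCODE 29 on GRCh38), a BMP of early mesoderm and epithelia, had 33.1, 37.1 and 37.3 CPM in WT and 14.8, 14.8 and 15.2 CPM in RARG-KO. Every RARG-KO library was below every WT library, and means were 35.8 ± 2.37 and 14.9 ± 0.203 CPM (SD, n = 3), giving a log2 change of -1.26 ± 0.07 (SE; adjusted p by edgeR = 1.05e-12). INHBB, which encodes the beta B subunit of activins and inhibins, fell from 83.8 ± 1.23 to 54.9 ± 3.99 CPM (log2 -0.61 ± 0.05). BMP6 fell by a log2 of -0.38 ± 0.05. The values of BMP2 (-0.71 ± 0.36), BMP7 (0.14 ± 0.10), BMP8B (0.07 ± 0.11) and INHBA (0.17 ± 0.30) did not pass. BMP2 and INHBA were sparse, with 0.466 to 0.901 and 0.534 to 0.898 CPM in WT. In RARG-KO, BMP2 had 0.406 to 0.456 CPM and lay below WT in every library, though WT replicate 3 and RARG-KO replicate 2 each had 14 reads. Groups without overlap were found in 62.6% of all tested genes.

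The genes of the 3 TGF-beta ligands went in different directions. TGFB2 had 70.8, 66.3 and 68.7 CPM in WT and 35.0, 35.1 and 33.8 CPM in RARG-KO, a log2 change of -0.99 ± 0.05 (SE; adjusted p by edgeR = 4.37e-13). TGFB1 rose from 51.9 ± 2.19 (SD, n = 3) to 66.9 ± 0.534 CPM (log2 0.37 ± 0.05, SE), and TGFB3 by 0.85 ± 0.17, with 1.76 to 2.40 CPM in WT and 3.45 to 4.11 CPM in RARG-KO. TGFB1 shares exon sequence with HNRNPUL1, an antisense gene with 56045 reads where TGFB1 had 10915. Since strand use in the counting is not given, the small rise of TGFB1 is uncertain, while HNRNPUL1 itself was at a log2 of 0.06. Per kilobase of annotated exon, TGFB2 went from 13.3 to 6.72 CPM and TGFB1 from 16.0 to 20.7 CPM, so that the distance between both levels widened.

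Latent TGF-beta binding proteins tie the inactive ligand to the matrix. LTBP2, the member of this group that is known not to bind latent TGF-beta itself (ENSG00000119681, chromosome 14, 74498170 to 74612378), had 106, 103 and 103 CPM in WT and 40.8, 36.8 and 39.5 CPM in RARG-KO. The groups lay far apart, with a log2 change of -1.42 ± 0.05 (SE; adjusted p by edgeR = 3.15e-16). LTBP3 (0.43 ± 0.05) and LTBP4 (0.20 ± 0.05) rose, and LTBP1 (-0.09 ± 0.04) did not pass.

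The secreted antagonists showed the deepest falls, in genes of low level. GREM1 and FST passed the filter on low counts through WT only, which favours a fall. GREM1 (ENSG00000166923, chromosome 15, 32717974 to 32745107), which encodes gremlin, a protein that captures BMP2 and BMP4, had 27, 42 and 41 reads in WT and 1, 1 and 0 reads in RARG-KO. In CPM these were 0.934, 1.40 and 1.36 against 0.0312, 0.0326 and 0. The group sums of 110 and 2 reads give a ratio of 58.2 with a 95% exact counting interval of 15.7 to 487, which covers counting error only (edgeR adjusted p = 3.05e-08). FST (ENSG00000134363, chromosome 5, 53480409 to 53487134), the gene of follistatin, which neutralises activins, had 57, 38 and 44 reads in WT and 3, 4 and 8 in RARG-KO. That was 1.97, 1.27 and 1.46 CPM against 0.0937, 0.130 and 0.255 CPM, with no overlap, and a log2 change of -3.26 ± 0.38 (SE; adjusted p by edgeR = 2.79e-07).

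Not all antagonists fell. FSTL3, which encodes a follistatin-like activin antagonist, rose from 43.0 to 59.8 CPM (log2 0.48 ± 0.05, SE). NOG, the gene of noggin, a BMP antagonist, rose by 0.19 ± 0.07 (edgeR adjusted p = 0.0257), and this call was lost with DESeq2 (0.129), without a filter on low counts (0.0619), with the median of its chromosome neighbours removed (0.922, at a log2 value of 0.01), without WT replicate 2 (0.102) or RARG-KO replicate 1 (0.0734), and without WT replicate 3 by a narrow margin. CHRD, the gene of chordin, had 10 to 15 reads per library in WT and 8 to 14 in RARG-KO and did not pass (-0.28 ± 0.40). BMP1, which despite its name encodes a metalloprotease that cleaves chordin and procollagens, fell by a log2 of -0.81 ± 0.09, with 14.7 to 18.6 CPM in WT and 8.86 to 10.2 CPM in RARG-KO.

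**Figure D2:**
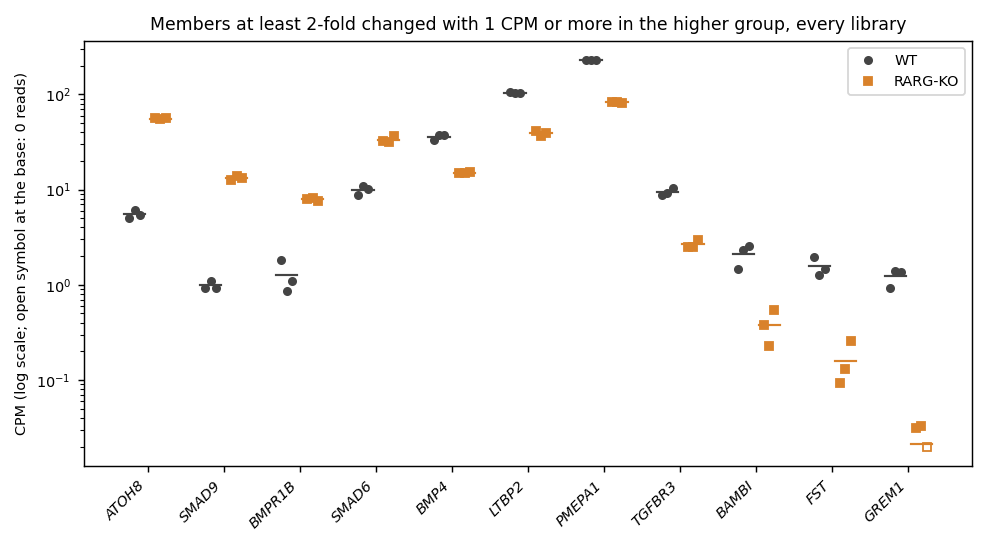
CPM (y axis, log scale) in each WT (circles) and RARG-KO (squares) library for the 11 pathway genes with a change of at least 2-fold and a mean of at least 1 CPM in the higher group; short lines are group means. In each gene the symbols of both groups stand apart, which the choice of genes with large changes favours. Groups without overlap were found in 62.6% of all tested genes. GREM1 has an open symbol for the RARG-KO library with 0 reads.

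Of the 6 type I receptor genes, 2 rose and 2 fell (33.3% each, beside 28.7% and 29.3% of all tested genes). BMPR1B and ACVRL1 changed by at least 2-fold, and ACVRL1 passed the filter on low counts through WT only. BMPR1B (ENSG00000138696, chromosome 4, 94757968 to 95158448), which encodes a type I BMP receptor also called ALK6, had 1.83, 0.867 and 1.10 CPM in WT and 8.06, 8.14 and 7.54 CPM in RARG-KO. The lowest RARG-KO library was above the highest WT library, and the log2 change was 2.65 ± 0.18 (SE; adjusted p by edgeR = 4.94e-11), or 6.26-fold. Its close relative BMPR1A fell by a log2 of -0.20 ± 0.05. Per kilobase of the principal transcript, BMPR1B went from 0.235 to 1.47 CPM and BMPR1A from 5.59 to 4.88 CPM, so BMPR1A kept the higher level.

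Of the other type I receptor genes, ACVR1B, an activin receptor, rose by 0.49 ± 0.05 (SE), and ACVR1 (0.03 ± 0.05) did not pass. TGFBR1, the type I receptor of TGF-beta, had 48.2, 43.8 and 51.8 CPM in WT and 50.7, 54.9 and 47.4 CPM in RARG-KO, which overlapped (0.09 ± 0.06; edgeR adjusted p = 0.239). ACVRL1, a receptor known from endothelium, fell by -1.14 ± 0.37, from 20 to 29 reads per library in WT to 7 to 15 in RARG-KO. Its call (edgeR adjusted p = 0.0116) was lost with DESeq2 (0.0724), when WT replicate 3 was left out (0.0761), and when RARG-KO replicate 2 was (0.0618).

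Of the 4 type II receptor genes, 2 rose and none fell, where 28.7% of all tested genes rose and 29.3% fell. The 2 that rose, TGFBR2 and ACVR2B, lie among chromosome neighbours that were higher as well, each with a median log2 of 0.32. TGFBR2 had 133, 130.5 and 137 CPM in WT and 155, 154 and 152 CPM in RARG-KO, a rise of 0.20 ± 0.03 on the log2 scale (SE; edgeR adjusted p = 4.40e-05). ACVR2B rose by 0.62 ± 0.09, while BMPR2 (0.08 ± 0.04) and ACVR2A (-0.15 ± 0.09) did not pass. Per kilobase of exon, TGFBR2 was the type II receptor with the highest level in both groups, 28.4 CPM in WT and 32.6 CPM in RARG-KO, followed by BMPR2 with 11.9 and 12.6 CPM.

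The co-receptors diverged. TGFBR3 (ENSG00000069702, chromosome 1, 91680343 to 91906335), the gene of betaglycan, which presents TGF-beta2 to its receptors, had 8.75, 9.11 and 10.3 CPM in WT and 2.47, 2.51 and 2.99 CPM in RARG-KO. The groups did not overlap, and the log2 change was -1.82 ± 0.12 (SE; adjusted p by edgeR = 5.37e-11). BAMBI (ENSG00000095739, chromosome 10, 28677342 to 28682939) encodes a receptor without a kinase that blocks signalling and is itself induced by the pathway in many cells. It had 1.45, 2.33 and 2.56 CPM in WT and 0.375, 0.228 and 0.541 CPM in RARG-KO (log2 -2.46 ± 0.32; edgeR adjusted p = 1.03e-06). BAMBI also passed the filter on low counts through WT only. ENG, the gene of endoglin, a co-receptor known from endothelium, rose by 0.63 ± 0.06, with 28.0 to 31.8 CPM in WT and 45.5 to 47.5 CPM in RARG-KO. Beside it, the endothelial list summed to 1.49 to 2.1 CPM in WT and 5.31 to 5.93 CPM in RARG-KO, with KDR at a mean of 1.43 and 5.45 CPM. The other 6 endothelial markers were under 1 CPM throughout. In bulk RNA, a change in the number of cells that hold a transcript and a change in its level per cell cannot be told apart.

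Among the 3 receptor SMADs of the BMP branch, 1 gene rose and the others did not pass, where 28.7% of all tested genes rose. SMAD9 (ENSG00000120693, chromosome 13, 36844831 to 36920765) had 0.934, 1.10 and 0.931 CPM in WT and 12.6, 13.9 and 13.2 CPM in RARG-KO. This 13.3-fold rise (log2 3.74 ± 0.13, SE; edgeR adjusted p = 1.06e-15) was the highest among the 47 genes. SMAD1 (-0.04 ± 0.08) and SMAD5 (-0.03 ± 0.04) had overlapping libraries, and SMAD5 was at 0.01 with upper-quartile factors. Per kilobase of exon, SMAD9 went from 0.173 to 2.31 CPM, and SMAD5, at 11.6 and 11.3 CPM, kept the highest level of these 3 genes.

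SMAD2, SMAD3 and SMAD4, which carry the activin and TGF-beta signal, all rose by less than 1.5-fold, where 28.7% of all tested genes rose. SMAD2 had 73.1, 78.8 and 73.0 CPM in WT and 96.0, 96.6 and 94.8 CPM in RARG-KO (log2 0.35 ± 0.04, SE; edgeR adjusted p = 2.41e-07). SMAD3 had 498, 498 and 495 CPM in WT and 622, 611 and 635 CPM in RARG-KO (0.33 ± 0.03; edgeR adjusted p = 2.35e-09). SMAD4, the gene often lost in pancreatic cancer, was expressed in every library, with 32.7, 32.2 and 32.1 CPM in WT and 44.5, 44.0 and 43.2 CPM in RARG-KO (0.44 ± 0.05; edgeR adjusted p = 3.52e-07). In each of the 3 genes every RARG-KO library was above every WT library. Groups without overlap, in either direction, were found in 62.6% of all tested genes. Per kilobase of exon, SMAD3 had the highest level of the 8 SMAD genes in both groups, 54.5 CPM in WT and 68.3 CPM in RARG-KO.

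The inhibitory SMADs parted. SMAD6 (ENSG00000137834, chromosome 15, 66702228 to 66782848), which mainly restrains BMP signals and is one of their direct targets, had 8.72, 10.9 and 10.1 CPM in WT and 32.4, 31.3 and 36.7 CPM in RARG-KO. The log2 change was 1.76 ± 0.08 (SE; edgeR adjusted p = 1.81e-13), or 3.38-fold. SMAD7, which restrains both branches and is a TGF-beta target, had 23.7 to 25.6 CPM in WT and 24.4 to 27.4 CPM in RARG-KO and did not pass (0.12 ± 0.07; edgeR adjusted p = 0.141). SKI, a nuclear corepressor of SMADs, rose by 0.64 ± 0.04, from 98.2 ± 2.48 to 153 ± 4.56 CPM (SD, n = 3). The related SKIL fell by -0.20 ± 0.07 with overlapping libraries, a call (edgeR adjusted p = 0.0138) that was lost with DESeq2 (0.203), without WT replicate 1 (0.0671), without RARG-KO replicate 1 (0.0576) and without RARG-KO replicate 3 (0.123, with a log2 value of -0.10). TGIF1 fell by -0.18 ± 0.04.

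The 3 target genes of the list went in different directions. ATOH8 (ENSG00000168874, chromosome 2, 85751344 to 85788066), a helix-loop-helix factor gene induced by BMP signals, had 5.09, 6.11 and 5.36 CPM in WT and 55.9, 54.9 and 56.8 CPM in RARG-KO. That is a 10.1-fold rise (log2 3.34 ± 0.07, SE; edgeR adjusted p = 6.02e-19). PMEPA1 (ENSG00000124225, chromosome 20, 57648392 to 57711536), a TGF-beta target whose product limits SMAD2 and SMAD3 activation, had 228, 229.7 and 229.5 CPM in WT and 82.3, 83.8 and 81.4 CPM in RARG-KO (log2 -1.47 ± 0.03; edgeR adjusted p = 1.38e-18). NKILA, an antisense noncoding gene that overlaps PMEPA1, fell as well (log2 -1.66 ± 0.17), with 555 reads against 28143 of PMEPA1. TGFBI, a secreted matrix protein gene named for its induction by TGF-beta, rose by 0.27 ± 0.03, from 374 ± 7.85 to 451 ± 17.9 CPM (SD, n = 3).

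Response genes outside the 47 were read from 2 lists of textbook targets. Both lists were chosen with earlier results of these data known, so their shares only describe these genes. Of 18 listed BMP response genes, 15 were tested, 10 rose and 4 fell (66.7% and 26.7%, beside 28.7% and 29.3% of all tested genes; median log2 0.67). ID3, ID2 and ID1, inhibitors of differentiation and the best known BMP targets, rose from 38.5 to 284, from 4.01 to 46.8 and from 175 to 441 CPM, with log2 changes of 2.88 ± 0.05, 3.54 ± 0.08 and 1.33 ± 0.03 (SE; edgeR adjusted p = 6.82e-21, 6.02e-19 and 3.10e-18). RUNX1 (-0.77 ± 0.05), SNAI2 (-2.14 ± 0.15) and HES1 (-0.64 ± 0.07) fell. Of 24 listed TGF-beta response genes, 21 were tested, 4 rose and 15 fell (19.0% and 71.4%; median log2 -0.49).

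CCN1, a matrix signalling protein gene, fell from 1101 to 308 CPM (log2 -1.84 ± 0.03, SE), ANGPTL4 from 131 to 44.0 CPM (-1.57 ± 0.04) and BHLHE40 by -1.19 ± 0.04. COL1A1 (1.07 ± 0.04), TPM1 (0.33 ± 0.03) and TAGLN (0.62 ± 0.14) rose. TAGLN shares exon sequence with PCSK7, an antisense gene with 8101 reads against 702, so its value is uncertain. The same holds for ACTA2, a falling gene with 104 reads that overlaps the antisense gene FAS (872 reads, log2 -1.52). JUNB, which also fell, overlaps the antisense gene HOOK2, whose reads were 25.8% of its own. SNAI2 is in both lists, and many of these genes also answer to other signals, whose part was not tested. The difference between the lists was not tested. ID4 passed the filter on low counts through RARG-KO only, and COL4A1 and ACTA2 through WT only, which favours the direction that each took. The neighbours of ACTA2 (-0.83), CCN1 (-0.60), COL1A1 (0.48), BHLHE40 (0.37), SNAI2 (-0.32) and HES1 (-0.25) had medians away from 0.

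**Figure D3:**
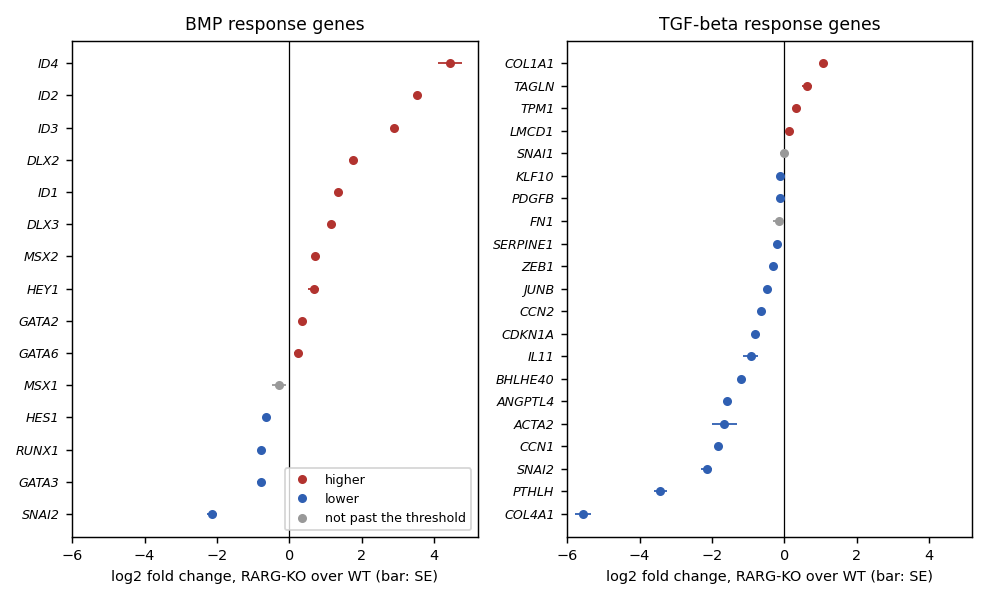
Log2 fold change, RARG-KO over WT (x axis, log2 units; error bars are SE), of the tested BMP response genes (left, 15 genes) and TGF-beta response genes (right, 21 genes), sorted by value. ID4, ID2 and ID3 head the left panel, and COL4A1 and PTHLH lie lowest on the right.

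Of 81 other pathway genes listed, 49 passed the filter, 18 rose and 18 fell (73.5% of those tested, beside 58.0% of all tested genes), with a median log2 of 0.00. These genes too were chosen with earlier results of these data known, so their shares only describe them. Only 7 of 23 other ligand genes were tested, and BMP5 (1.11 ± 0.09, SE) and GDF15 (0.29 ± 0.04) rose. Among receptors and co-receptors, NEO1 (0.93 ± 0.10), LRRC32 (1.47 ± 0.36) and CD109 (0.10 ± 0.04) rose, and NRROS (-1.67 ± 0.11), RGMB (-0.91 ± 0.07) and AMHR2 (-2.10 ± 0.35) fell. LRRC32 passed the filter on low counts through RARG-KO only and AMHR2 through WT only. LRRC32 and NRROS both encode membrane anchors of latent TGF-beta, and RGMB and NEO1 a BMP co-receptor and its partner.

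The extracellular regulator with the smallest adjusted p was FSTL1, which encodes a follistatin-like glycoprotein. It went from 6.19 to 72.0 CPM (log2 3.54 ± 0.07, SE; edgeR adjusted p = 5.68e-20). VASN (0.67 ± 0.08) and ITGAV (0.35 ± 0.04) also rose. ITGB8, an integrin subunit that activates latent TGF-beta together with the product of ITGAV, fell by -1.67 ± 0.13, CRIM1 by -0.20 ± 0.03 and THBS1 by -0.28 ± 0.04. Inside the cell, the ubiquitin ligase genes WWP1 (-0.83 ± 0.05), SMURF2 (-0.55 ± 0.05) and SMURF1 (-0.41 ± 0.04) fell, and STUB1, also a ubiquitin ligase gene, rose (0.33 ± 0.05). FKBP1A (0.59 ± 0.03) and TAB1 (0.52 ± 0.07) rose too. The neighbouring tested protein-coding genes, up to 20 on each side, were at a median log2 of -0.63 for WWP1, 0.41 for FKBP1A, -0.44 for NRROS and -0.65 for FSTL1. RGMB, WWP1, SMURF1, SMURF2 and STUB1 each share exon sequence with an antisense gene whose reads exceed 10% of their own, so their values are less certain.

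Some values of the pathway genes moved with their chromosome neighbourhood. For each gene the median log2 fold change of tested protein-coding neighbours was taken, up to 20 on each side and fewer near a chromosome end. It was removed in a further edgeR fit, which treats that median as known. SMAD2, SMAD4 and SMAD7 on chromosome 18 had neighbour medians of 0.33, 0.25 and 0.36. With these removed SMAD2 was at 0.03 (edgeR adjusted p = 0.624), SMAD4 at 0.19 (0.00459) and SMAD7 at -0.25 (0.00354), the last below its neighbours. On chromosome 3, TGFBR2 and ACVR2B had neighbour medians of 0.32 each and went to -0.12 (0.00703) and 0.30 (0.00679). BMPR1A, in a part of chromosome 10 with a neighbour median of -0.77, went from -0.20 to 0.58 (1.55e-09). BMP7, with neighbours at -0.46, went from 0.14 to 0.61 (5.16e-05), and BMP2, with neighbours at 0.42, from -0.71 to -1.13 (0.0108). NOG, with neighbours at 0.18, went to 0.01 (0.922). In that fit 5 more genes passed the threshold, LTBP1 at -0.12 (0.0176), ACVR1 at 0.21 (0.000711), TGFBR1 at 0.18 (0.0224), BMPR2 at 0.14 (0.00472) and SMAD5 at -0.15 (0.00579). What moves these stretches was not tested.

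The genes with the largest changes stood apart from their neighbours. SMAD9, ATOH8, BMPR1B and SMAD6 had neighbour medians of -0.07, 0.04, 0.07 and 0.04. GREM1 (-0.04), BAMBI (-0.09), BMP4 (-0.08) and LTBP2 (0.02) likewise lay among neighbours near 0. The neighbours of PMEPA1 (-0.45), FST (-0.37) and TGFBR3 (-0.33) were lower, and with them removed the values were -1.03, -2.89 and -1.49, each still past the threshold.

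**Figure D4:**
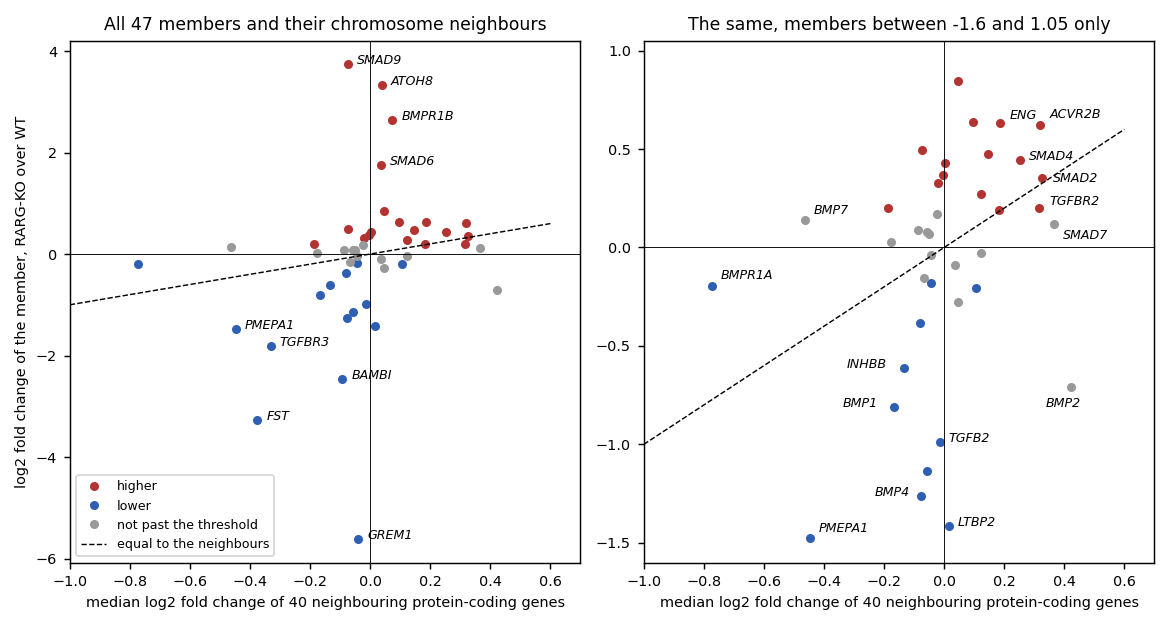
Log2 fold change of each of the 47 genes (y axis, RARG-KO over WT) against the median log2 fold change of its neighbours, up to 40 (x axis). The right panel enlarges the middle, and the dashed line marks equal values. SMAD2 lies on the line, BMPR1A far to the left of most genes at -0.77, and SMAD9, ATOH8, BMPR1B and SMAD6 high above it.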

How the data were processed

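Gene counts of 6 RNA-seq libraries were used as the authors deposited them, without normalization. Per the submitters' processing notes, HISAT2 2.1.0, Bowtie2 2.2.3, featureCounts and DESeq2 were used with GRCh38 and hg38. For their roles, the annotation release and strand use: not given in the sources used here. Libraries were grouped by sample titles. RARG-KO was tested against WT with edgeR 4.0.16 (glmQLFit, glmQLFTest) in R 4.3.3 on all genes, with TMM factors, filterByExpr at its defaults (16996 genes, 99.9% of counts) and Benjamini-Hochberg adjustment at 0.05, after a check on simulated data. The SE is the absolute log2 value divided by the square root of F. At this depth 3 counts correspond to 0.0937 to 0.104 CPM. Replicates differed by more than sampling noise (chi-square per degree of freedom 2.14 to 5.14).

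Positions and exon lengths, summed over all annotated exons of a gene, are those of GENCODE 29. Sequences are from RefSeq (GRCh38.p14). Exon sequence of 12 of the 47 genes overlaps a gene on the other strand, and for TGFB1, BMP8B, ACVR2A and CHRD the partner's reads exceed 10% of their own. The members and lists were chosen with earlier results of these data known. Values in every library are given for RARG, for members past the threshold with a change of at least 2-fold and at least 1 CPM, and for SMAD2, SMAD3, SMAD4, TGFBR1 and TGFBR2, and from each other list up to 3 rising and 3 falling genes with the smallest adjusted p are named. Other values in single libraries, and the remaining genes named from the lists, were chosen after they were seen. Alternatives were RLE and upper-quartile factors, DESeq2 1.42.0, no filter, a mean of at least 1 CPM, a replicate block, a test against a 1.5-fold change, removal of neighbour medians, and leaving out each library.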

Additional observations from a re-analysis of the deposited data

How the results depend on the processing

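The 11 members with values in every library and changes of at least 2-fold kept their direction and call in all 14 alternatives, as did TGFB2 and BMP1. Against a 1.5-fold change (edgeR glmTreat), 951 of all genes were higher and 1508 lower, 4 and 9 of the members, 6 and 7 of the other pathway genes and 1 and 8 of the TGF-beta response genes, and 6 and 3 of the BMP response genes; RARG, at -0.58, lost its call. With neighbour medians removed, BMPR1A turned to 0.58, TGFBR2 to -0.12, SMAD7 to -0.25 and SMAD1 to 0.01. SMAD5 turned to 0.01 with upper-quartile factors. With single libraries left out, SMAD5 ranged from -0.06 to 0.02 (0.00 without WT replicate 3), SMAD1 from -0.11 to 0.04, INHBA from -0.04 to 0.30 and BMP8B from -0.06 to 0.14. Of these genes, BMPR1A and TGFBR2 had passed the threshold in the first place. DESeq2 gave 18 higher and 13 lower members, and 4167 higher and 4601 lower among 23074 genes tested.

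Same-numbered libraries did not deviate together (correlations 0.0137, -0.0514 and -0.00744), so no pairing by number was seen, though this check cannot exclude one. With the replicate block, 4546 genes were higher and 4712 lower, and 19 members were higher and 15 lower. The fewest reads among the members stood behind CHRD, BMP2, ACVRL1, GREM1 and INHBA, with ACVRL1 at 7 to 29 a library. BMP2 passed without WT replicate 3 (-0.93, edgeR adjusted p = 0.0485).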

Other observations

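Several pathway genes fell below the filter on low counts and were not tested, and their reads are given as group sums over 3 libraries. LEFTY2, which encodes an inhibitor of NODAL signals, had 3 WT reads against 25 RARG-KO reads, and LEFTY1 had 2 against 9. MSTN, the gene of myostatin, had 3 against 23. BMPER, the gene of a BMP binding regulator, had 51 against 6, and the ligand gene BMP3 had 11 against 0. No read was found in any library for 10 of the 81 other pathway genes, among them BMP10, GDF2 and TDGF1, nor for CDKN2B, a TGF-beta response gene. Among the 10, GDF1 shares all of its annotated exon sequence with CERS1 on the same strand (189 reads), so its lack of reads is uncertain.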
